A study of Mus musculus with 59 samples.

Results

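Hox genes are homeobox transcription factor genes that lie in clusters and give the embryonic body and hindbrain their head-to-tail positions. All protein-coding mouse genes with a symbol made of Hox, a cluster letter and a number were taken, which gave 39 genes of the 54232 mouse genes counted: 11 in the Hoxa cluster, 10 in Hoxb, 9 in Hoxc and 9 in Hoxd. Membership rested on the symbol alone and on no measured value. The counts came from bulk RNA-seq of 12 mice aged 10 weeks from a line backcrossed to C57BL/6J, with each library made from 1 brain region of 1 mouse. The regions were cerebellum, brainstem, hippocampus, striatum and cortex, and each of the 3 genotypes had 4 mice, except that brainstem had 3 libraries of the 154Q-AXH genotype. WT mice carried 2 unchanged copies of Atxn1, whose product is the ataxin-1 protein. Atxn1_154Q/2Q mice, called 154Q, are a knock-in model of spinocerebellar ataxia type 1: 1 endogenous allele has an expanded CAG repeat, so the mutant protein is made wherever Atxn1 is normally active. Atxn1_154Q[V591A;S602D]/2Q mice, called 154Q-AXH, carry V591A and S602D (human residue numbering) on the expanded allele, made by CRISPR editing in the AXH domain to disrupt binding of ataxin-1 to the transcriptional repressor Capicua (CIC).

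In vertebrate embryos the order of Hox genes along a cluster matches the order of their front limits along the body axis. Genes at the 3′ end (low paralogue numbers) begin in the anterior hindbrain, middle ones in the caudal hindbrain and cervical cord, and 5′ genes (high numbers) in the trunk and tail. Genes of the same number in different clusters are paralogues from duplications of 1 ancestral cluster. Forebrain and midbrain form in front of all Hox domains, and the cerebellum arises mainly from the first rhombomere, which lies in front of the Hoxa2 limit. The codes are set up by retinoic acid, segmentation factors and TALE cofactors, and silent clusters are kept silent by Polycomb proteins.

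Total counts per library ran from 64416717 to 112343574 read pairs in brainstem, cerebellum and hippocampus and from 28058359 to 54719126 in striatum and cortex. Levels are counts scaled to library size, in the usual CPM unit, so 3 counts over the 4 WT brainstem libraries corresponded to 0.00851 CPM. Of the 59 libraries, 58 scored highest on the marker list of their labelled region. The exception was the library labelled hippocampus of 154Q-76, which held abundant Hox RNA, and it was kept out of every comparison and is described apart. Mice are named by group and the number in their label, and per-library values are given in the order of these numbers: for WT first WT-70, then WT-77, WT-220 and last WT-221, for 154Q first 154Q-69, then 154Q-71, 154Q-75 and last 154Q-76, and for 154Q-AXH first 154Q-AXH-207, then 154Q-AXH-209, next 154Q-AXH-217 (absent in brainstem) and last 154Q-AXH-218. Hippocampal values of 154Q stop at 154Q-75. No label says that mice of a group came from separate litters, so p-values measure the spread between these mice.

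The 39 genes share the homeobox, the stretch that encodes their DNA-binding domain. The 39 bases below encode the recognition helix region in 4 genes on which the results turn, and capitals mark the positions at which the 4 differ (sense strand, GENCODE M21 transcripts, GRCm38).
Hoxa2: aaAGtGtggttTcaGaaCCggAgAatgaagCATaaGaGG
Hoxa5: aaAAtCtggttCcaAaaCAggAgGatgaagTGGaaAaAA
Hoxa7: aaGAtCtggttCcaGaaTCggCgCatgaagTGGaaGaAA
Hoxb8: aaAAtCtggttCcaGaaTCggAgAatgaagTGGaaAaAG

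Between any pair of the 39 genes, 23 to 38 of these 39 bases were identical, and no pair was identical over all of them. The longest run shared by transcripts of different members was 52 bases, in 1 pair (Hoxa6 and Hoxb4), against reads of 150 bases. On the chromosome, 16 of the 39 shared exon bases with another annotated gene. Read pairs were counted without regard to strand, and sense and antisense RNA cannot be told apart. Hoxd3, Hoxb3 and Hoxd4 shared 62.8%, 52.9% and 52.3% of their exon bases, and pairs that fell on bases of more than 1 gene were counted for none, so their levels are uncertain.

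WT brainstem held a graded set of Hox transcripts that peaked in the middle of the clusters. The summed level per kilobase of exon not shared with another gene was 1.92 CPM per kb for paralogue group 1, 3.81 for group 2 and 9.79 for group 3. It was 27.3 CPM per kb for group 4 and 41.3 for group 5, then 13.2 for group 6, 4.54 for group 7 and 11.2 for group 8. Beyond group 8 it fell away, to 0.297 CPM per kb for group 9 and 0.00442 for group 10, with 0 for groups 11 and 12 and 0.0390 for group 13. With 10 counts in every WT brainstem library as the minimum, 20 of the 39 genes were present: 7 of 11 Hoxa genes, 7 of 10 Hoxb, 3 of 9 Hoxc and 3 of 9 Hoxd. The Hoxb cluster carried the most RNA, 122 CPM in sum, against 73.1 for Hoxa, 44.2 for Hoxc and 8.45 for Hoxd. In a dissected region, fewer cells of a type and less RNA per cell cannot be told apart.

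**Figure D1:**
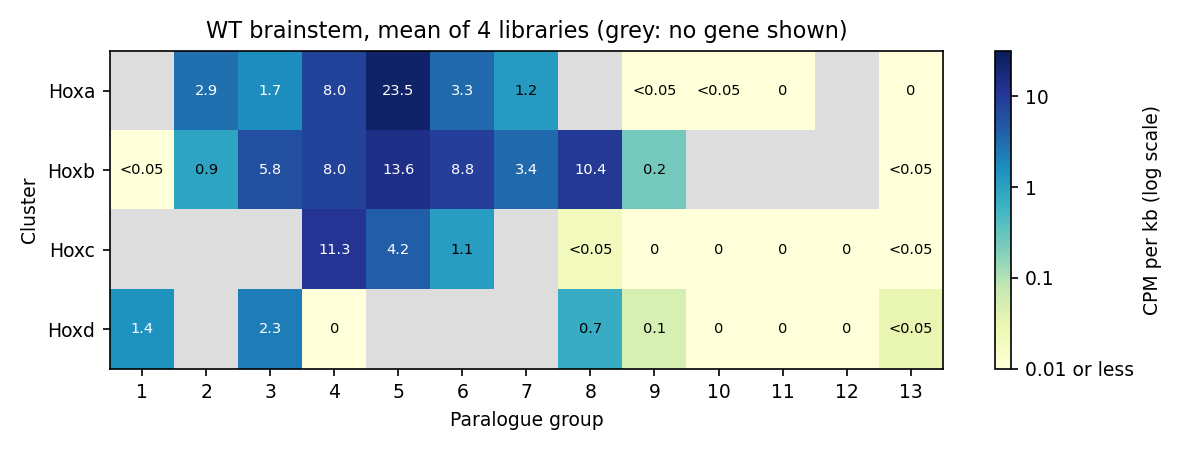
Mean level in 4 WT brainstem libraries of Hox genes, in CPM per kb of unshared exon on a log colour scale, with the 4 clusters as rows and the 13 paralogue groups as columns (grey, no gene shown). The strongest cells lie in groups 4 to 8, led by Hoxa5 at 23.5 CPM per kb, and cells to the right of group 9 are near or at 0.

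Taking the strongest gene of each paralogue group, the levels per kilobase rose to group 5, fell to group 7 and were higher again in group 8. Hoxd1, a group 1 gene studied in pain-sensing neurons, had 1.22, 1.32, 1.60 and 1.53 CPM per kb in the WT mice, a mean of 1.42 ± 0.177 (SD, n = 4). Hoxa2, the selector of second pharyngeal arch identity and the Hox gene with the most anterior hindbrain limit, had 2.87, 2.87, 2.98 and 2.84 CPM per kb (mean 2.89 ± 0.0594). Hoxb3, which patterns the middle hindbrain, had 5.67, 5.85, 5.76 and 5.99 CPM per kb (mean 5.82 ± 0.137). Hoxa2 and Hoxb3 differed little between the mice and Hoxd1 more, and the 3 genes did not overlap one another.

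Hoxc4, a gene of caudal medulla and cervical cord, had 11.8, 10.9, 11.3 and 11.2 CPM per kb (mean 11.3 ± 0.350). Hoxa5, needed for the phrenic motor neurons that drive breathing, had 21.3, 27.2, 23.3 and 22.0 CPM per kb (mean 23.5 ± 2.65) and lay above every other member in every WT mouse. Hoxb6, a central gene of its cluster, had 6.23, 12.4, 8.22 and 8.11 CPM per kb (mean 8.75 ± 2.62). From Hoxa5 onward the spread between mice widened, and WT-77 was the highest in each of the central genes.

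Hoxb7, another central Hoxb gene, had 1.51, 6.27, 3.09 and 2.60 CPM per kb (mean 3.37 ± 2.05). Hoxb8, which acts in the dorsal spinal cord and is also known from a microglial lineage, had 4.24, 21.5, 8.03 and 8.06 CPM per kb (mean 10.4 ± 7.56). In descending order of means the sequence was Hoxa5, Hoxc4, Hoxb8, Hoxb6, Hoxb3, Hoxb7, Hoxa2 and Hoxd1. The neighbours Hoxc4 and Hoxb8, Hoxb8 and Hoxb6, Hoxb3 and Hoxb7, and Hoxb7 and Hoxa2 overlapped between mice, whereas Hoxa5 lay wholly above Hoxc4, Hoxb6 above Hoxb3 and Hoxa2 above Hoxd1. Other group 4 and 5 genes were also abundant, with 13.6 ± 0.413 CPM per kb for Hoxb5, 8.02 ± 0.264 for Hoxa4 and 7.97 ± 0.347 for Hoxb4.

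Among the members below that minimum, 9 had some counted reads in WT brainstem and 10 had none. Hoxb1, the marker of the fourth rhombomere in the embryo, had at most 2 counts per library at 10 weeks, in contrast to its neighbour Hoxb2. Hoxb9 had 3, 243, 17 and 5 counts in the WT mice, and again WT-77 stood alone. Hoxd13, a gene of digits and genital tubercle, had 6, 7, 10 and 3 counts. Hoxa9, Hoxa10, Hoxb13, Hoxc8, Hoxc13 and Hoxd9 had a mean of at most 0.107 CPM. Hoxa11, Hoxa13, Hoxc9, Hoxc10, Hoxc11, Hoxc12, Hoxd4, Hoxd10, Hoxd11 and Hoxd12 were not detected there. This allows up to 0.00851 CPM for each except Hoxd4 and covers counting error only. Hoxd4 shared 52.3% of its exon bases, where pairs were counted for none, so its lack of counts sets no such bound. Of the 10 genes, Hoxc12, Hoxd4 and Hoxd12 had no count in any of the 59 libraries.

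Across the WT brain the Hox genes formed a step at the brainstem. The summed level of all 39 genes was 212, 311, 237 and 229 CPM in brainstem, a mean of 247 ± 43.8 (SD, n = 4). In cerebellum it was 2.20, 1.15, 0.825 and 0.988 CPM (mean 1.29 ± 0.622). In hippocampus it was 0.363 to 0.824 CPM (mean 0.594 ± 0.215), in striatum 0.170 to 0.513 (mean 0.329 ± 0.164) and in cortex 0.225 to 0.548 (mean 0.371 ± 0.165). Every brainstem library lay far above every other WT library, the lowest cerebellar library (0.825 CPM) lay level with the highest hippocampal one (0.824 CPM), and the forebrain regions overlapped one another. Marker genes of the brainstem summed to 649 to 684 CPM in WT brainstem.

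**Figure D2:**
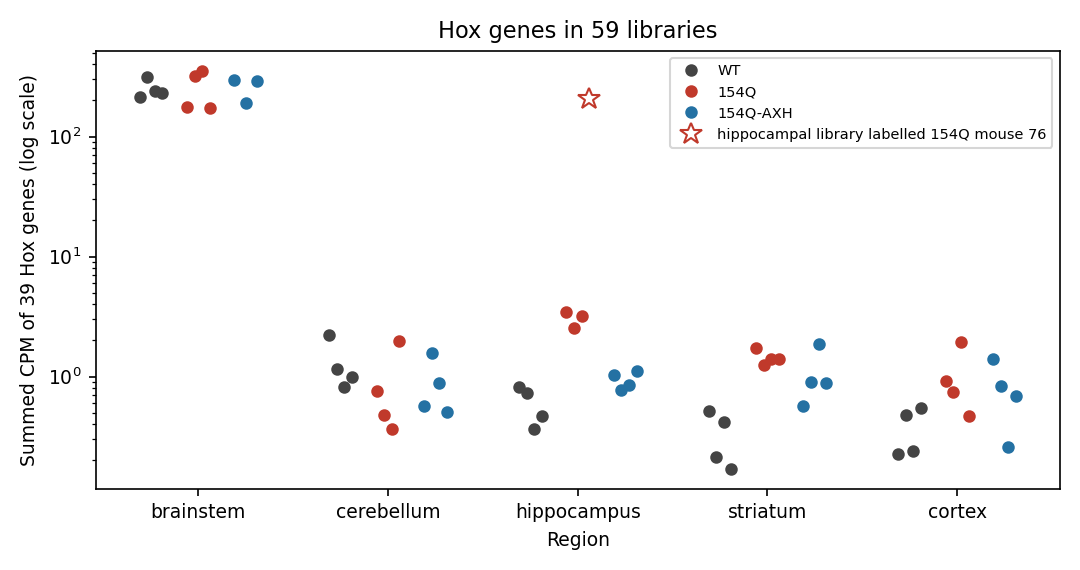
Summed CPM of the 39 Hox genes in each of the 59 libraries on a log axis, by region, with genotype by colour and the hippocampal library labelled 154Q-76 as a star. Brainstem libraries lie between 174 and 354 CPM, the star lies among them at 205 CPM, and the other libraries lie at 3.49 CPM or below.

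All members present in WT brainstem were higher there than in each other region. In edgeR (quasi-likelihood test, p adjusted by Benjamini-Hochberg over all genes tested), 20 of 20 Hox genes tested were raised and 0 lowered against cerebellum, where 32% of all 22200 genes tested were raised. The result was 20 of 20 against hippocampus (29.4% of all genes raised), 20 of 20 against striatum (33%) and 20 of 20 against cortex (33.5%). These 20 passed the filter on low counts through their brainstem level, so the count is no support on its own. Without that filter, 22 of 30 Hox genes with any count were called against cerebellum (38.4% of all genes), 24 of 30 against hippocampus (35%), 23 of 30 against striatum (37.9%) and 22 of 30 against cortex (37.1%).

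The 20 genes tested all differed by a wide margin. Against cerebellum the median log2 difference of the 20 genes was 7.78, beside -0.00 for all genes, and the genes with counts in both regions ran from 4.40 for Hoxd1 to 8.64 for Hoxa4. By smallest p, the leading genes were Hoxb4 (log2 difference 7.78 ± 0.17 SE, adjusted p = 7.1e-21), Hoxc4 (8.50 ± 0.19), Hoxb6 (7.86 ± 0.28) and Hoxa5 (8.40 ± 0.20). Hoxb4 is a caudal hindbrain gene also known from blood stem cells. Its WT counts in cerebellum were 6, 14, 7 and 2, which put it at 0.440% of its brainstem level. Hoxa5 and Hoxc4 reached 0.303% and 0.261% of their brainstem CPM in cerebellum. Against hippocampus the same 4 genes differed by 7.95 (Hoxb4), 10.75 (Hoxc4), 10.00 (Hoxb6) and 9.48 (Hoxa5) on the log2 scale.

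Many members were at 0 in the forebrain, where a fitted fold depends on the prior count. In WT striatum 8 of the 20 genes had no count (Hoxa4, Hoxa6, Hoxb7, Hoxb3, Hoxb2, Hoxc5, Hoxc6 and Hoxc4). In WT cortex 9 had none (Hoxd3, Hoxa3, Hoxa4, Hoxa6, Hoxb7, Hoxb5, Hoxb2, Hoxc5 and Hoxc6). With these genes set at the bound that 3 counts over the group allow, the median log2 difference over the 20 genes was 8.85 against hippocampus, 8.84 against striatum and 8.27 against cortex. Hoxd1 was the exception among the anterior genes, since its WT level stayed at 3.60 to 4.81% of the brainstem level in all other regions. Hoxa2, next to it in group order, was at 0.950% in cerebellum and had no count in WT hippocampus.

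Cerebellum held a small residue of Hox RNA. Of the 20 genes, 9 were raised and 0 lowered in WT cerebellum against the mean of hippocampus, striatum and cortex, where 38.3% of all genes were raised, a share close to that of the Hox genes. Hoxc4 had 2, 14, 5 and 4 counts in WT cerebellum (log2 difference 3.37 ± 0.74 SE, adjusted p = 2.5e-04). Hoxa5 had 15, 6, 16 and 4 counts (2.73 ± 0.61, adjusted p = 3.5e-04), Hoxb5, its group 5 paralogue, 12, 5, 9 and 5 (3.28 ± 0.87, adjusted p = 0.0021), and Hoxa2 was next (2.80 ± 0.87, adjusted p = 0.0070). Hoxd1, with 9, 9, 8 and 13 counts, did not pass (0.14 ± 0.42, adjusted p = 0.78). Counts were so few that the sums rested on single libraries in places: 45 of the cerebellar Hoxb8 counts came from WT-70 against 4, 2 and 6 in the others. The cerebellar libraries also carried brainstem markers at 42.3 to 52.1 CPM, whose part in this was not tested. Without WT-77 Hoxa2 no longer passed (log2 difference 2.24, adjusted p = 0.096).

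The factors that act on or with Hox genes went both ways in WT brainstem. Over all genes tested, 32% were raised and 33.4% lowered against cerebellum, and the TALE and retinoic acid counts lay near these shares. Among 9 TALE cofactors, 4 were raised and 3 lowered against cerebellum, led by Meis2 (4.61 ± 0.22) and Pbx4 (0.66 ± 0.13) upward and by Pknox1 (-0.38 ± 0.06) downward. Against hippocampus the raised genes were led by Meis1 (4.04 ± 0.21) and Pbx3 (2.81 ± 0.26). Of 14 segmentation and boundary factors, 11 were tested and 6 were raised against cerebellum, led by Pax8 (7.01 ± 0.30), a midbrain-hindbrain gene. En2, a gene of the cerebellar territory, led the 3 that were lowered (-4.91 ± 0.19). In the retinoic acid pathway 5 genes were raised and 6 lowered of 15 tested against cerebellum, led by the receptor Rxra (1.43 ± 0.06) and the binding protein Crabp1 (5.92 ± 0.64) upward. Polycomb and Trithorax genes, which hold clusters silent or active, were mostly lowered. Against cerebellum 0 were raised and 20 lowered of 23 (33.4% of all genes lowered). Against hippocampus 0 were raised and 14 lowered (31.3%), led by Rnf2 there (-1.40 ± 0.06). Their median was -0.73 against cerebellum, beside -0.00 for all genes.

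RNAs made inside the clusters and genes that flank them were also counted. Of 9 noncoding and antisense RNAs, 5 were tested and all 5 were raised against cerebellum, led by Hoxaas2 (6.84 ± 0.24) and Hoxb3os (7.71 ± 0.40), beside 32% of all genes. Like the Hox genes, they passed the filter on low counts through their brainstem level, so this count is no support on its own. The unstranded counts do not separate these from the Hox genes they overlap. Of 18 genes flanking the clusters, 16 were tested and 8 were raised and 3 lowered against cerebellum, where 32% of all genes were raised and 33.4% lowered. Evx1, a homeobox gene at the 5′ end of Hoxa and a marker of spinal and hindbrain interneurons, led them (6.81 ± 0.32), before Skap1, an adaptor gene near Hoxb (5.64 ± 0.38).

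Brainstem libraries of the same genotype differed widely in the Hox genes of groups 6 to 8 and less in those of groups 1 to 4. Hoxb8 had 11.2, 56.6, 21.2 and 21.2 CPM in WT. It had 12.1, 57.3, 53.4 and 9.55 CPM in 154Q. In 154Q-AXH it had 44.0, 9.76 and 44.2 CPM. High and low libraries thus occurred in every genotype, with WT-77, 154Q-71, 154Q-75, 154Q-AXH-207 and 154Q-AXH-218 high and the genotypes overlapping over nearly the whole range. Hoxa2, the steadiest member, by contrast had 4.29 to 4.49 CPM in WT, 3.89 to 4.43 in 154Q and 3.65 to 4.40 in 154Q-AXH.

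The same 5 libraries were high in all central genes. Hoxb7 had 2.34, 9.68, 4.78 and 4.01 CPM in WT, 3.29, 12.4, 11.4 and 2.38 in 154Q, and 9.20, 2.03 and 8.69 in 154Q-AXH. Hoxd8, a central HoxD gene, had 0.695, 6.04, 0.906 and 0.504 CPM in WT, 0.726, 4.49, 4.69 and 0.400 in 154Q, and 2.24, 0.666 and 3.54 in 154Q-AXH. Hoxa7, a central HoxA gene, had 85, 722, 134 and 119 counts in WT, 124, 570, 521 and 118 in 154Q, and 371, 99 and 363 in 154Q-AXH. Hoxa5 varied less, at 40.0, 51.1, 43.7 and 41.2 CPM in WT, 32.0, 56.4, 66.2 and 34.8 in 154Q, and 53.8, 36.2 and 47.8 in 154Q-AXH, but was highest in the same libraries.

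**Figure D3:**
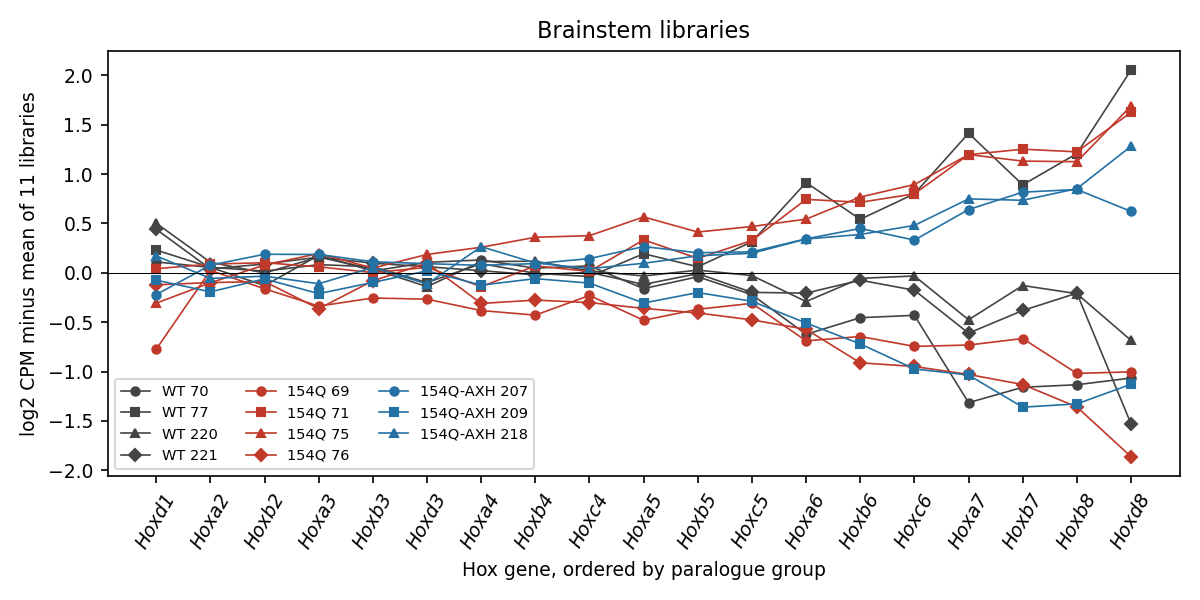
Difference of each brainstem library from the mean of the 11 libraries, in log2 CPM, for 19 of the 20 Hox genes present in every WT brainstem library, ordered by paralogue group, with 1 line per library. The lines run close together over groups 2 to 4, wider at Hoxd1, and fan out from group 5, with WT-77, 154Q-71, 154Q-75, 154Q-AXH-207 and 154Q-AXH-218 on the upper side.

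The spread was widest in groups 6 to 8. Over all 18898 genes with 10 counts in each of the 11 brainstem libraries, the median SD of log2 CPM within genotypes was 0.112 and the 90th percentile 0.384. The 10 genes of groups 1 to 4 had SDs of 0.0905 to 0.262, the 3 of group 5 had 0.271 to 0.36 and the 7 of groups 6 to 8 had 0.659 to 1.61. Within groups 1 to 4, 8 of the 10 genes lay above the median of all genes. The extremes were Hoxa2, whose highest library was 1.23 times its lowest, and Hoxd8, for which this fold was 15.1. Hoxd1, at 2.42-fold, spanned more than the group 5 genes (1.77 to 2.07). Pearson's r with Hoxb8 across the 11 libraries, from log2 CPM within genotypes, was -0.503 to 0.754 in groups 1 to 4, 0.862 to 0.963 in group 5 and 0.934 to 0.996 in groups 6 to 8, with a median of -0.0285 over all genes. Within a library all genes share 1 dissection and preparation, and the values are a description. Summed over groups 6 to 9, WT libraries had 31.1, 115, 49.7 and 47.9 CPM, 154Q libraries 31.7, 118, 114 and 25.6, and 154Q-AXH libraries 89.6, 27.0 and 90.5.

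Outside the clusters, the 5 genes with the highest r were picked after their values were seen. Tac2, a tachykinin gene, had r = 0.995 with Hoxb8, at 1.86, 7.18, 2.72 and 3.20 CPM in WT, 1.30, 4.18, 3.59 and 1.00 in 154Q, and 4.06, 1.18 and 4.11 in 154Q-AXH. Hpcal4 (r = 0.983), Pcsk5 (0.978), Drd2, a dopamine receptor gene (0.967), and Plppr1 (0.967) followed. Only 60 of the 18898 genes had a larger within-genotype SD than Hoxb8. Brainstem marker sums ranged from 649 to 684 CPM in WT, 507 to 680 in 154Q and 587 to 620 in 154Q-AXH. Ttr, the leading choroid plexus transcript, ranged from 19.8 to 4434 CPM, with WT-77 at 19.8, 154Q-75 at 4434 and 154Q-AXH-218 at 25.8, so it was low in some of the Hoxb8-high libraries and high in others.

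No Hox gene passed the test for a genotype effect in brainstem. In edgeR, 0 of the 22 Hox genes tested were called between 154Q and WT, where 117 of 21754 genes (0.538%) were. Between 154Q-AXH and WT the count was 0 of 22, against 3 genes in all (0.0138%), and between 154Q-AXH and 154Q 0 of 22, against 0 in all (0%). At an unadjusted p under 0.05, 2 Hox genes differed between 154Q and WT (2367 genes in all), and 0 in the other 2 comparisons (1465 and 1163 genes). DESeq2 called 1 Hox gene between 154Q and WT, Hoxd1, and 0 in each of the others. The median log2 difference of the 22 genes was 0.04, 0.02 and -0.02 in the 3 comparisons, beside 0.00 for all genes in each.

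Hoxd1 came nearest to the threshold. It had 2.27, 2.47, 2.98 and 2.85 CPM in WT, 1.23, 2.16, 1.70 and 1.93 in 154Q, and 1.81, 2.00 and 2.37 in 154Q-AXH. Every 154Q library lay below every WT library, while 154Q-AXH overlapped both. The log2 difference was -0.58 ± 0.16 SE between 154Q and WT (edgeR adjusted p = 0.178), -0.36 ± 0.18 between 154Q-AXH and WT (adjusted p = 0.762) and 0.22 ± 0.18 between 154Q-AXH and 154Q. The first 2 of these share the WT libraries. DESeq2 gave -0.60 with an adjusted p of 0.030 between 154Q and WT.

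The next genes by p were Hoxd13 and Hoxa3. Hoxd13 had 6, 7, 10 and 3 counts in WT, 14, 11, 23 and 19 in 154Q, and 8, 13 and 16 in 154Q-AXH (log2 difference between 154Q and WT 1.22 ± 0.40 SE, adjusted p = 0.262). Hoxa3, a group 3 gene of the caudal hindbrain and pharynx, had 7.50, 7.02, 7.40 and 7.40 CPM in WT, 5.25, 6.92, 7.59 and 5.16 in 154Q, and 7.54, 5.73 and 6.14 in 154Q-AXH (-0.25 ± 0.12, adjusted p = 0.495). In counts the 154Q and WT libraries stood apart for Hoxd13, but scaled to library size they overlapped (0.107 CPM in the lowest 154Q and 0.129 CPM in the highest WT library), as they did for Hoxa3.

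Precision differed with position along the clusters. In the 154Q against WT comparison the SE of the log2 difference was 0.07 to 0.16 for groups 1 to 4, 0.15 to 0.20 for group 5 and 0.37 to 0.80 for 6 genes of groups 6 to 8. Hoxb8 had a log2 difference of 0.23 ± 0.64 there, with an SE larger than the difference itself. With the Hoxb8 level as a covariate, chosen after seeing the data, the SEs of groups 6 to 8 were 0.07 to 0.28. No Hox gene was called in any of the 3 comparisons with it. Hoxb8 is itself a member, with r of 0.934 to 0.996 with the other genes of groups 6 to 8. That fit therefore cannot show a genotype difference that these genes share with Hoxb8. No gene of the TALE, segmentation, retinoic acid, Polycomb, flanking or noncoding lists was called between 154Q and WT in brainstem. Of 10 brainstem markers, 2 were lowered (Dbh and Tph2), beside 0.4% of all genes, and the median was -0.44, beside 0.00 for all genes.

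In cerebellum the members were too low for most tests. Hoxd1 alone was tested in edgeR and was not called between 154Q and WT (log2 difference -0.09 ± 0.47 SE, adjusted p = 0.954, 5.22% of all genes called), between 154Q-AXH and WT (0.40 ± 0.42, adjusted p = 0.730, 2.21%) or between 154Q-AXH and 154Q (0.50, 0.0335%). None of its unadjusted p-values was under 0.05, and DESeq2 gave it no adjusted p. Summed Hox levels in cerebellum were 0.755, 0.477, 0.366 and 1.99 CPM in 154Q, and 0.563, 1.56, 0.891 and 0.510 CPM in 154Q-AXH. They overlapped the WT range.

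The library labelled hippocampus of 154Q-76 carried Hox RNA at a brainstem level. It held 21947 Hox counts, 205 CPM, against 0.363 to 0.824 CPM in the WT hippocampal libraries. For the 20 genes its level was a median of 75.8% of the WT brainstem mean, from 49.9% for Hoxd1 to 130% for Hoxb7. The median was 69.1% for the 13 genes of groups 1 to 5 and 98.1% for the 7 genes of groups 6 to 8. In the same library brainstem markers stood at a median of 46.7% of the WT brainstem mean and hippocampal markers at 53.2% of the WT hippocampal mean. Cerebellar markers stood at 0.915%, striatal ones at 1.86% and cortical ones at 31.7% of the WT mean of their regions. The cortical markers summed to 253 CPM, within the 168 to 294 CPM of the WT hippocampal libraries. Midbrain and rostral brainstem markers stood at a median of 101% of the WT brainstem mean, from 5.07 to 135% by gene. They summed to 13.4 CPM, against 14.4 to 31.5 CPM in WT brainstem and 13.7 to 31.4 CPM in WT hippocampus. This list thus does not tell these regions apart. Choroid plexus markers stood at 3.37% of the WT hippocampal mean.

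**Figure D4:**
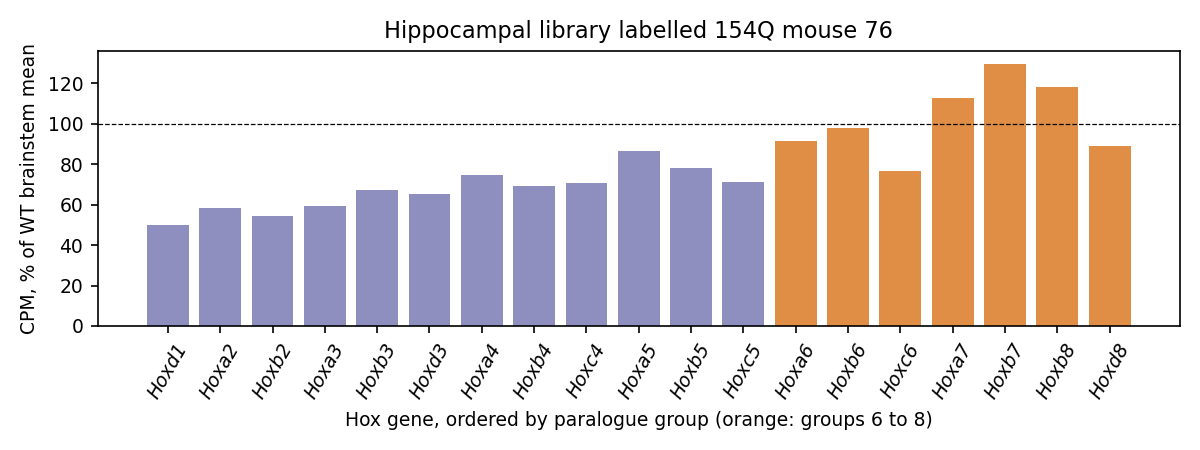
Level of 19 Hox genes in the hippocampal library labelled 154Q-76, as a percentage of the WT brainstem mean CPM, ordered by paralogue group, with groups 6 to 8 in orange and a dashed line at 100%. Bars of groups 1 to 5 lie between 49.9 and 86.5%, and those of groups 6 to 8 between 76.9 and 130%.

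Its Hox profile was not that of the brainstem library with the same mouse number. Hoxb8 was at 32.5 CPM in this library and at 9.55 CPM in brainstem of 154Q-76, and Hoxd8 was at 453% of the latter. Hoxa5 was at 38.1 against 34.8 CPM, whereas Hoxa2 and Hoxd1 were at 65.1% and 68.2% of their level in that brainstem library. Over the 20 genes, the SD of the log2 ratio to a brainstem library was smallest for 154Q-AXH-218 (0.176) and 154Q-AXH-207 (0.190), then 154Q-75 (0.226), 154Q-71 (0.245) and WT-77 (0.339). It was largest for 154Q-76 itself (0.886). Which animal or tissue the RNA came from was not tested.

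In the remaining hippocampal libraries a subset of Hox genes was present at low levels in 154Q mice. The summed Hox level was 0.824, 0.723, 0.363 and 0.466 CPM in WT, 3.49, 2.54 and 3.20 CPM in 154Q, and 1.03, 0.769, 0.849 and 1.11 CPM in 154Q-AXH. Every 154Q library lay above every library of the other genotypes, and WT and 154Q-AXH overlapped. Of the 5 Hox genes tested, 5 were raised in 154Q against WT, where 2.45% of all genes were raised, but these passed the filter through their 154Q level. Without the filter, 6 of 29 Hox genes with counts were called, against 2.94% of all genes.

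Hoxa2 had no count in any WT hippocampal library, 38, 29 and 27 counts in 154Q and 1, 0, 1 and 2 in 154Q-AXH. Its 154Q mean of 0.365 ± 0.0751 CPM (SD, n = 3) was at least 41.3-fold higher than the bound of 3 counts over the WT group (edgeR adjusted p = 5.9e-05). That mean was 8.37% of the level in WT brainstem. Hoxa2 did not overlap between 154Q and the other genotypes.

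Hoxc4 had 2, 2, 0 and 1 counts in WT, 36, 25 and 42 in 154Q, and 11, 7, 1 and 6 in 154Q-AXH. The 154Q mean was 28.4-fold the WT mean (log2 difference 4.58 ± 0.48 SE, adjusted p = 5.9e-05). Hoxc6, a gene of brachial cord identity in the same cluster, had 1, 3, 0 and 3 counts in WT, 27, 22 and 41 in 154Q, and 11, 1, 16 and 7 in 154Q-AXH (3.94 ± 0.60, adjusted p = 0.0014). For both, 154Q stood above the other genotypes, and 154Q-AXH lay partly within the WT range for Hoxc4 and Hoxc6.

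Hoxa7 had 3, 22, 10 and 7 counts in WT, 64, 54 and 70 in 154Q, and 28, 24, 24 and 38 in 154Q-AXH. Its log2 difference between 154Q and WT was 2.50 ± 0.34 (adjusted p = 0.0017), and the 3 genotypes did not overlap, with 154Q-AXH between the others. Part of its exon sequence overlaps the antisense gene Hoxaas3. Hoxd8 had 2, 3, 0 and 0 counts in WT, 33, 12 and 16 in 154Q, and 14, 11, 0 and 6 in 154Q-AXH (3.83 ± 0.77, adjusted p = 0.0073). Without 154Q-69 Hoxd8 no longer passed (log2 difference 3.30, adjusted p = 0.057). With the series of mouse numbers as a covariate it did not pass either (3.04, adjusted p = 0.059), and the other 4 genes did. The series term of that fit rested on the WT mice alone. They had no Hoxa2 count, so for Hoxa2 the fit cannot decide. For Hoxc4, Hoxc6 and Hoxd8 the term rested on few WT counts.

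**Figure D5:**
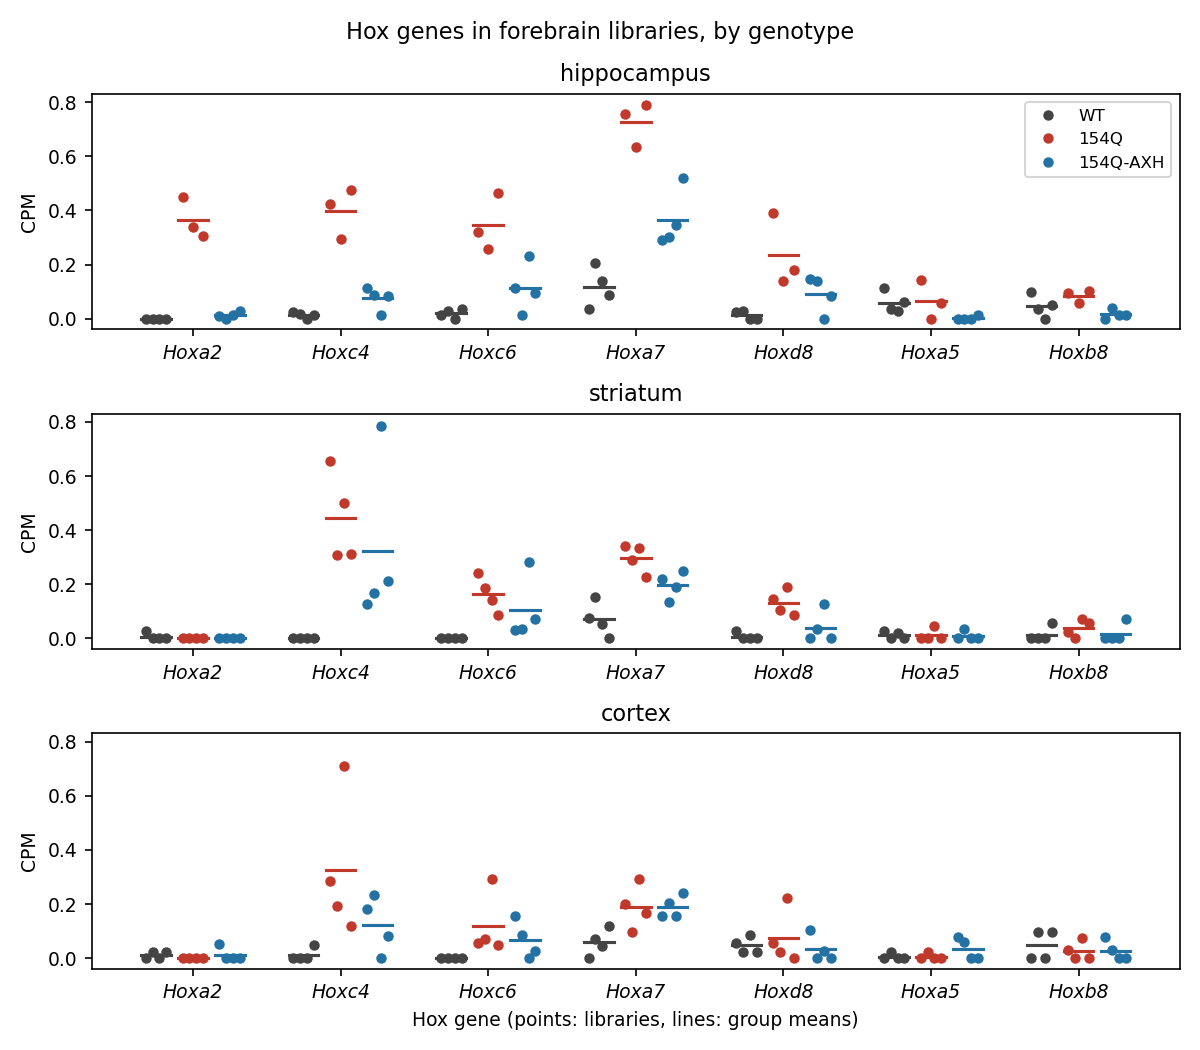
CPM of Hoxa2, Hoxc4, Hoxc6, Hoxa7, Hoxd8, Hoxa5 and Hoxb8 in hippocampus, striatum and cortex by genotype, with points as libraries and lines as group means, without the hippocampal library labelled 154Q-76. In hippocampus Hoxa2 averages 0.365 CPM in 154Q and 0 in WT, while the brainstem leader Hoxa5 averages 0.0661 CPM in 154Q and 0.0598 CPM in WT.

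Of the genes present in WT brainstem, some were higher in 154Q than in WT hippocampus and others were not. Hoxa5, the strongest gene of WT brainstem, had 9, 4, 2 and 5 counts in WT hippocampus, 12, 0 and 5 in 154Q, and 0, 0, 0 and 1 in 154Q-AXH, with 154Q and WT overlapping. Hoxb8 had 8, 4, 0 and 4 counts in WT, 8, 5 and 9 in 154Q, and 0, 3, 1 and 1 in 154Q-AXH, again with overlap. Hoxb4 had 4, 13, 7 and 3 counts in WT and 16, 4 and 1 in 154Q. Hoxd1 had 17, 10, 6 and 4 counts in WT and 8, 4 and 13 in 154Q. By contrast, Hoxb2 had 0, 3, 0 and 0 counts in WT and 7, 8 and 9 in 154Q, without overlap. Hoxa4 likewise had 1, 1, 0 and 0 counts in WT and 6, 3 and 5 in 154Q. The count ratio of Hoxc4 to Hoxa5 was 0.515 to 0.766 in the brainstem libraries, whereas in 154Q hippocampus the counts were 36 to 12, 25 to 0 and 42 to 5. Brainstem markers summed to 2.72 to 4.95 CPM in these 154Q libraries and to 2.29 to 3.67 CPM in WT, and the choroid plexus transcript Ttr to 1103 to 3919 and 1295 to 5136 CPM.

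At the 3′ end of Hoxa the RNAs around Hoxa2 moved with it. In hippocampus the totals over WT, 154Q and 154Q-AXH libraries were 1, 34 and 7 counts for the noncoding Hotairm1 and 0, 94 and 4 for Hoxa2. Hoxaas2, an antisense RNA at chr6:52165674-52169564 (GRCm38), had 2, 231 and 26 (log2 difference between 154Q and WT 6.88, adjusted p = 5.9e-05). Further along the cluster Hoxa3 had 5, 1 and 2 counts, Hoxa4 2, 14 and 0, Hoxa5 20, 17 and 1, and Hoxa7 42, 188 and 114. The signal was thus high around Hoxa2 and at Hoxa7 and low between them. Skap2, the flanking gene beyond the 3′ end of the cluster (chr6:51857422-52012549), was raised by 0.36 (adjusted p = 0.025).

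Upstream sequence is shown for the genes whose levels moved furthest in the forebrain (Hoxa2, Hoxc4), for the most variable leader in brainstem (Hoxb8) and for Hoxb4, the only member with a CIC match. Each run is the 250 bases before the RefSeq start (GRCm38.p6), 5′ to 3′ on the strand of the gene: chr6:52164832-52165081 (minus) for Hoxa2, chr15:103034145-103034394 (plus) for Hoxc4, chr11:96281655-96281904 (plus) for Hoxb8 and chr11:96318017-96318266 (plus) for Hoxb4. Capitals mark matches on either strand to TGATNNAT (Hox-Pbx), TGACAG (Meis) or the CIC letters TGAATGAA, TGAATGGA, TCAATGAA and TCAATGGA.
Hoxa2: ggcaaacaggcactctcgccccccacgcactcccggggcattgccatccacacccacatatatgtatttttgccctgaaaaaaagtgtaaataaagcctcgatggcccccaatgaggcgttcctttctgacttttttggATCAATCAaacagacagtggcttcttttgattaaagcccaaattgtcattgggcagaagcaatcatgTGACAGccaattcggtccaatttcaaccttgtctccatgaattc
Hoxc4: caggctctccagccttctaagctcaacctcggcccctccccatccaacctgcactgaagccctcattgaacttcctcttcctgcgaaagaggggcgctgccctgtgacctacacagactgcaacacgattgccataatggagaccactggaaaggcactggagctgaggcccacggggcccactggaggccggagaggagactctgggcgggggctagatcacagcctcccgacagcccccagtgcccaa
Hoxb8: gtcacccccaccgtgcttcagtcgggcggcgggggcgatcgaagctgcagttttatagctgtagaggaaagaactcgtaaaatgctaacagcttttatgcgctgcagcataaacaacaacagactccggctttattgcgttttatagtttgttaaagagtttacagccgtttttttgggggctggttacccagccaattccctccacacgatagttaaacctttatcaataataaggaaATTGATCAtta
Hoxb4: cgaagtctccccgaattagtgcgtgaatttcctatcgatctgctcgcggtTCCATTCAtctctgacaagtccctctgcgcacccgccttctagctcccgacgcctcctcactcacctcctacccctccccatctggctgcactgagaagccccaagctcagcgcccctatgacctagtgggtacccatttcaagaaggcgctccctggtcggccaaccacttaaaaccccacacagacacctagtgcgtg

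Hoxa2 held both Hox-Pbx and Meis letters, Hoxb8 held Hox-Pbx letters and Hoxc4 held none. Windows were available for 22 of the 39 genes. Over all 32851 windows of this length 7.68% held the Hox-Pbx letters, 15.9% the Meis letters and 3.19% the CIC letters, and of the 22 Hox genes 4, 2 and 1 did. TTTATG (Cdx), which is not capitalised, was in 10.8% of all windows and in those of 5 of the 22, Hoxa7 and Hoxb8 among them. Hox windows had a median of 12.5 CG dinucleotides against 6 in all windows. A match is a description of the letters and not of binding.

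The 154Q-AXH means of these 5 genes lay between those of WT and 154Q in hippocampus. Between 154Q-AXH and WT 0 of the 5 genes were called in edgeR (1.55% of all genes raised), although all 5 had an unadjusted p under 0.05: Hoxa7 at a log2 difference of 1.49 (adjusted p = 0.055), Hoxc4 at 2.27 (0.080), Hoxc6 at 2.30 (0.112), Hoxd8 at 2.57 (0.132) and Hoxa2 at 3.22 (0.253). As Hoxa2 had no WT count, its fitted value depends on the prior count. Its 154Q-AXH mean was 1.48-fold the bound of 3 counts over the WT group. DESeq2 called Hoxa7 (1.56, adjusted p = 0.0042). Both comparisons share the WT libraries. Between 154Q-AXH and 154Q, 2 Hox genes were lowered among 4 genes called in all (0.0184%): Hoxa2 fell by 4.69 ± 0.47 SE on the log2 scale (adjusted p = 0.0017) and Hoxc4 fell by 2.31 ± 0.35 (adjusted p = 0.023). Hoxaas2 was another of the 4. The mouse numbers fall into a lower series, from 154Q-69 to WT-77, and a higher one, from 154Q-AXH-207 to WT-221, with all 154Q mice in the lower, all 154Q-AXH mice in the higher and WT mice in both. With the number series as a covariate neither was called, at -4.69 for Hoxa2 and -0.83 (adjusted p = 0.942) for Hoxc4. The series term of that fit rested on the WT mice alone. Hoxa2 had no WT count, so for Hoxa2 the fit cannot decide. The Hoxc4 call was also lost in 9 of 11 fits that left out 1 library.

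On the log2 scale the 154Q change differed between hippocampus and the hindbrain regions for Hoxa2 and Hoxc4. Both genes had already been seen to be raised in 154Q hippocampus. In a model of 58 libraries with 22 Hox genes tested, the 154Q change was larger in hippocampus than in brainstem for Hoxa2 (by 7.67 ± 1.02 SE on the log2 scale, adjusted p = 5.8e-06) and Hoxc4 (4.59 ± 0.79, adjusted p = 3.6e-04), where 0.301% of all genes were called in that direction. Against cerebellum both were called as well (0.775% of all genes). In WT brainstem, however, Hoxa2 stood at 4.36 CPM and Hoxc4 at 29.1 CPM. The 154Q hippocampal means were 8.37% and 1.37% of these levels. A rise of that size in CPM would be small on the log2 scale in brainstem. Whether the rise in CPM differed between regions was not tested. Hoxa2 had no count in WT hippocampus, so the size of its difference in each comparison depends on the prior count. Against striatum (0.359%) and cortex (0.144%) no Hox gene was called in edgeR, and 2 and 1 had an unadjusted p under 0.05. DESeq2 was not run on this model, and neither was a fit with mouse as a block. The model took libraries of 1 mouse as independent.

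In striatum Hoxc4 was the Hox gene called in edgeR between 154Q and WT. It had no count in any WT striatal library, 27, 15, 21 and 11 counts in 154Q, and 4, 5, 25 and 6 in 154Q-AXH. The 154Q mean was at least 24.0-fold higher than the bound from WT (edgeR adjusted p = 0.017), and 1.92% of all genes were raised. The 154Q-AXH mean was at least 17.5-fold higher but was not called in edgeR (adjusted p = 0.071, 0.277% of all genes raised), and 154Q-AXH and 154Q overlapped (log2 difference -0.40, edgeR adjusted p = 0.948, 0% of all genes called, DESeq2 adjusted p = 0.991). DESeq2 called Hoxc4 between 154Q-AXH and WT (adjusted p = 7.6e-05). With the number series as a covariate, Hoxc4 in 154Q against WT had an adjusted p of 0.126. The series term rested on the WT mice alone, where Hoxc4 had no count, so that fit cannot decide whether the call depends on the series. Without the filter Hoxa7 and Hoxc6 were also called in 154Q (2.47% of all genes): Hoxa7 with 3, 5, 3 and 0 counts in WT and 14, 14, 14 and 8 in 154Q, and Hoxc6 with 0 in each WT library and 10, 9, 6 and 3 in 154Q. Hoxd8 was not called there, with 1, 0, 0 and 0 counts in WT, 6, 5, 8 and 3 in 154Q, and 0, 1, 4 and 0 in 154Q-AXH, and 154Q did not overlap WT. Hoxa2, the leading gene in hippocampus, had no count in any 154Q striatal library.

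In cortex no Hox gene passed the filter. Without it 2 of 21 were called in 154Q against WT (5.38% of all genes): Hoxc4, with 0, 0, 0 and 2 counts in WT, 10, 8, 29 and 5 in 154Q, and 7, 8, 0 and 3 in 154Q-AXH, and Hoxc6, with 0 in each WT library, 2, 3, 12 and 2 in 154Q, and 6, 3, 0 and 1 in 154Q-AXH. The 154Q and WT libraries did not overlap for either gene, and 154Q-AXH overlapped both. Names of the deposited tables exchange the cortical libraries of 154Q-76 and 154Q-AXH-207; the labels were followed, and with this pair exchanged the last 154Q count was 7 for Hoxc4 and 6 for Hoxc6, again above WT. Hoxc4 was thus higher in 154Q than in every WT library in all 3 forebrain regions. The summed Hox level was 0.225 to 0.548 CPM in WT cortex, 0.472 to 1.94 in 154Q and 0.260 to 1.41 in 154Q-AXH, so that the sums overlapped.

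Some genes of the segmentation and boundary list and of the Polycomb and Trithorax list were also raised in 154Q hippocampus, where 2.45% of all genes were. Whether they act on the Hox genes here was not tested. Of 10 segmentation and boundary factors tested, 2 were raised, led by Pax2, a midbrain-hindbrain boundary gene (log2 difference 3.64 ± 0.40 SE, adjusted p = 3.8e-04). Of 23 Polycomb and Trithorax genes, 3 were raised, led by Cbx8 (0.55 ± 0.07, adjusted p = 0.0014), and Phc2 was lowered (-0.17 ± 0.04). In the other lists Pbx2 was lowered among 9 TALE cofactors (-0.22 ± 0.05) and Cyp26b1, a retinoic acid degrading enzyme, among 15 retinoic acid genes (-0.89 ± 0.22). Pax2 was also raised in 154Q striatum (3.13) and cortex (2.55) and was not called in brainstem.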

How the data were processed

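RNA of 59 libraries from 12 mice was sequenced as paired reads of 150 bases. The authors trimmed reads (Trimmomatic 0.36) and aligned and counted them with STAR 2.7.2d on GRCm38.p6, per the submitters' processing notes, and deposited raw counts of read pairs per gene, of which the unstranded column was used. In every file, 4 summary rows and 1 row for a human transgene (at most 53 counts) were left out. Positions and exon lengths came from GENCODE M21. Levels between genes are CPM per kb of exon not shared with another gene. Total counts per library were the denominators of CPM, and with the number of libraries per group they limit the precision.

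Tests used edgeR 4.0.16 in R 4.3.3 (quasi-likelihood F test on TMM-scaled counts of genes that passed filterByExpr, Benjamini-Hochberg over all genes tested, threshold 0.05). WT regions were fitted over 20 libraries without a block, genotypes within each region over 11 or 12, and the interaction of genotype and region over 58. The library labelled hippocampus of 154Q-76 entered only as an alternative. Alternatives were DESeq2 1.42.0, its size factors, no filter, mouse as a block, covariates (number series, Ttr, Hoxb8), and leaving out each library. The fits were tested on simulated data.

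Genes named were all members called, or the 4 with the smallest p in each direction where more than 8 were, or the 3 with the smallest unadjusted p where none was, plus the strongest member of each paralogue group with 1 CPM or more in WT brainstem. Of other lists, the 2 called genes with the smallest p in each direction were named. Some genes that these rules name are not reported here. Lists were described by counts and medians, with no set test. Members, lists and tests were chosen with earlier results of these data known.

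The 5 regions come from the same animals. Over 40 pairs of WT libraries of 1 mouse, deviations from the region means correlated between -0.382 and 0.534 (median -0.00255, over 0.1 in 13 pairs, 15861 genes).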

Additional observations from a re-analysis of the deposited data

Results flagged for a closer look

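The values of 1 gene in 1 group of 4 libraries formed a set, and in 6 of 54 such sets 1 library lay far from the others. The limit used is passed by chance in about 1 in 20 sets of independent, normally distributed values, whereas these sets are partly low counts and share libraries. In WT brainstem, WT-77 had 6.43 CPM of Hoxa7 against 0.969 to 1.73 CPM in the others, and 6.04 CPM of Hoxd8 against 0.504 to 0.906. In 154Q cerebellum, 154Q-76 had 0.153 CPM of Hoxa2 against 0 to 0.0203 and 0.353 CPM of Hoxc4 against 0.0126 to 0.0406. In 154Q-AXH striatum, 154Q-AXH-217 had 0.786 CPM of Hoxc4 against 0.126 to 0.214, and in 154Q cortex 154Q-75 had 0.294 CPM of Hoxc6 against 0.0472 to 0.0723. The 54 sets did not cover every Hox gene in every group, so the 6 are not a full list. Hoxb9 in WT brainstem was not among them, with 2.16 CPM in WT-77 against 0.0342 to 0.220. Nor was Hoxb8 in WT cerebellum, with 0.699 CPM in WT-70 against 0.0220 to 0.0812.

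On the log2 scale the 154Q change differed between regions for Hoxa2 and Hoxc4 in edgeR's interaction test. It was larger in hippocampus than in brainstem by 7.67 on the log2 scale for Hoxa2 and 4.59 for Hoxc4. It was larger in hippocampus than in cerebellum by 7.50 for Hoxa2 (adjusted p = 0.0067) and 4.16 for Hoxc4 (adjusted p = 0.049). With no Hoxa2 count in WT hippocampus, the sizes for Hoxa2 depend on the prior count. Both genes stood far higher in WT brainstem than in hippocampus, and a difference in the rise in CPM was not tested.

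The hippocampal library labelled 154Q-76, which entered no comparison, held 205 CPM of Hox RNA against 0.363 to 0.824 CPM in WT hippocampus.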

How the results depend on the processing

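All calls of the Hox genes in WT brainstem against the other regions kept their direction, with 20 to 21 called against cerebellum and hippocampus and 20 against striatum and cortex when each mouse was left out, and 7 to 9 for cerebellum against forebrain. With mouse as a replicate block, 20 genes were called in each brainstem comparison and 10 in cerebellum against forebrain, and no other call changed.

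DESeq2 called 1 Hox gene for 154Q against WT in brainstem, 1 in hippocampus (adjusted p was missing for the other 4), 1 for 154Q-AXH against WT in hippocampus, 0 for 154Q-AXH against 154Q in hippocampus and 1 for 154Q-AXH against WT in striatum. In hippocampus, 154Q-AXH against 154Q, the count was 0 with the number series as a covariate, 1 with Ttr, 1 with the compared genotypes only, 0 with the library labelled 154Q-76, and 1 to 2 when each library was left out (2 only without 154Q-71 or 154Q-AXH-207). For 154Q-AXH against WT there it was 0 to 1 (1 without WT-77), and for 154Q against WT 5 to 5, with Hoxd8 no longer among them without 154Q-69. In striatum, 154Q against WT, it was 3 without the filter, 0 with the number series and 1 to 2 when each library was left out, the added gene being Hoxa7. In cortex it was 2 without the filter. The series term rested on the WT mice alone. They had no count of Hoxa2 in hippocampus or of Hoxc4 in striatum, so for these the series fits cannot decide. The Hoxd1 difference turned to -0.071 with the number series (brainstem, 154Q-AXH against 154Q). In cerebellum it ranged from -0.65 to 0.10 between 154Q and WT when each library was left out, above 0 without WT-221, 154Q-75 or 154Q-76. The cause was not tested in any of these. Of the alternatives of single genes, 570 kept direction and call, 19 lost a call, 4 gained one and 4 turned. Covariates, the exclusion of other genotypes and the fits for hippocampal 154Q-AXH, striatum and cortex were chosen after seeing the data.

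Depth limits the forebrain members most, where a member with 0 counts is bounded only by 3 counts over its group. Intervals and bounds cover counting error only.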
